A study of Mus musculus with 4 samples.

Results

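The cells described here are Epcam-positive cells of the mouse cochlear duct at embryonic day 12.5 (E12.5) in which Sall3 mRNA was detected. Little or no mRNA of the regional marker genes named below was detected in them. Single-cell RNA-seq libraries had been made from dissected and dissociated embryonic cochleae, sorted by flow cytometry for green fluorescent protein (GFP), with the 10x Genomics 3' v3 chemistry. The series holds 2 libraries at E12.5 and 2 at E14.5, and each of the 4 is labelled with the genotype Sox2-GFP/WT, so there is no group without the reporter and no other treatment. The sort kept cells with GFP from the Sox2 reporter, and cells without it were not sampled. Cells with at least 1000 detected genes and under 10% of their unique molecular identifiers (UMIs, each counting 1 captured mRNA molecule) from mitochondrial genes were kept. Of the kept E12.5 cells, the rule took those with at least 1 UMI of Epcam and of Sall3, no UMI of Fgf20, Otx2, Hmx2 or Hmx3, and fewer than 2 UMIs of Bmp4. It found 63 cells (25 in replicate 1 and 38 in replicate 2) among 567 Epcam-positive cells, 1332 kept cells at E12.5 and 5950 kept cells in the series. They are called Sall3-positive cells below, and they were compared within each library with the other 504 Epcam-positive cells.

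The cochlear duct grows out of the otocyst as an epithelial tube whose floor forms the sensory organ of Corti and whose roof forms non-sensory tissue. Sox2, an HMG-box transcription factor, marks the prosensory part of the floor and cells beside it, Fgf20 is a ligand expressed in the prosensory domain, Bmp4 marks the lateral floor, Otx2 marks the roof, and Hmx2 and Hmx3 mark dorsal and vestibular otic epithelium. Sall3 belongs to the Sall family of zinc-finger transcription factors, and the Irx genes encode homeodomain transcription factors that sit in clusters in the genome, with Irx3, Irx5 and Irx6 in one cluster and Irx1, Irx2 and Irx4 in another.

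The E12.5 libraries held 694 and 737 deposited cell barcodes and the E14.5 libraries 1705 and 3298, of which 648, 684, 1569 and 3049 were kept. Total counts ran from 12945421 to 14822617 UMIs per library at E12.5 and from 39903952 to 74034411 at E14.5. No pair of libraries shared more than 1 barcode. Sall3-positive cells had a median of 22273 UMIs in replicate 1 and 17019.5 in replicate 2, against 21294.5 and 21584 in the other Epcam-positive cells, and their UMIs summed to 540243 and 760219. Cells were summed per library and tested across libraries, since cells of 1 library are not replicates. No label says that the 2 libraries of an age came from separate animals, so p-values measure the spread between libraries only. Levels are counts per 1000000 UMIs of the summed cells (CPM), replicate 1 first.

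Sall3-positive cells made up 10.0% of the Epcam-positive cells in replicate 1 (25 of 249, exact Clopper-Pearson 95% interval 6.6 to 14.5) and 11.9% in replicate 2 (38 of 318, 8.6 to 16.0), and these intervals cover counting error only. Sall3 itself was more widely present, in 84 of 249 and 104 of 318 Epcam-positive cells. Of these, 29 and 32 also had Fgf20, 22 and 25 had Hmx2 or Hmx3, 18 and 13 had at least 2 Bmp4 UMIs, and 4 and 2 had Otx2, and all of those were set aside by the rule. The threshold is low: 8 of the 25 Sall3-positive cells in replicate 1 and 10 of the 38 in replicate 2 had exactly 1 Sall3 UMI, 12 and 23 had 3 or more, and the highest counts were 14 and 8. A single Bmp4 UMI was allowed and was present in 1 and 9 cells, while 1 and 2 cells that met every other condition had exactly 2 Bmp4 UMIs and stayed out. Sall3 stood at 165 and 168 in the Sall3-positive cells and at 37.3 and 35 in the other Epcam-positive cells, and Epcam at 920.0 and 802 against 932 and 975. The cells were chosen by these counts, which are given as a description. All 7 genes of the rule were kept out of the tests.

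The word uncommitted in a name for these cells is not something the counts can show, so the cells are called by their rule. Epithelial genes summed to 3150.4 and 3337 CPM against 3877 and 3926 in the other Epcam-positive cells: of 16 listed, 15 were tested, and Cldn3, Krt18 and Krt19 were lower. Sox2 stood at 133 and 128 in the Sall3-positive cells and 95.2 and 103 in the others (log2 difference 0.45, SE 0.15, adjusted p = 0.119 by edgeR's quasi-likelihood test). A Sox2 UMI was present in 17 of 25 and 32 of 38 Sall3-positive cells. The reporter transcript Egfp stood at 341 and 404 against 332 and 323 (log2 difference 0.27, adjusted p = 0.131).

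Genes of the Irx3 cluster were higher in Sall3-positive cells than in the other Epcam-positive cells, and Irx1 of the other cluster was absent from them. Irx3 (ENSMUSG00000031734, chr8:91798525-91802067 on mm10) stood at 370.2 and 342 CPM in Sall3-positive cells and at 134 and 107 in the others (log2 difference 1.497, SE 0.13, adjusted p = 3.47e-07). The libraries lay close together and the groups did not overlap. Irx3 had been named as a marker of these cells with earlier results of the same data known, so its difference is not independent support for the choice of cells. Irx5 (chr8:92357625-92376286) stood at 187 and 193 against 91.3 and 72.1 (log2 difference 1.13, SE 0.20, adjusted p = 0.00133). The low-abundance Irx6 (chr8:92674288-92680956) stood at 35.2 and 25 against 6.7 and 4.36 (log2 difference 2.32, SE 0.47, adjusted p = 0.00454). The long non-coding RNA Crnde (chr8:92326033-92356120), which lies beside Irx5 on the opposite strand, led the 10 largest increases among called genes with an average log2 CPM of 5 or more, at 172 and 159 against 57.8 and 44 (log2 difference 1.67, SE 0.17, adjusted p = 2.34e-06). Whether the authors' counting used strand is not given in the sources used here, and the annotation holds an antisense RNA over part of Irx3, whose reads could not then be told apart.

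Irx1 (chr13:71957921-71963723) had no UMI in the 63 Sall3-positive cells and stood at 69.2 and 59.8 in the others. Fgf20 cells, compared below, held only 5 Irx1 UMIs (3.22 CPM). With the limit of 3 counts over the summed cells, Irx1 was at least 1.40-fold lower than in Fgf20 cells. Against all the other Epcam-positive cells it was at least 27.7-fold lower. Irx2 (chr13:72628820-72634198) stood at 31.5 and 1.32 against 32.9 and 27.3, with 12 of its 18 UMIs in 1 cell of replicate 1, and did not pass the test (log2 difference -1.19, adjusted p = 0.301). Irx4 had no UMI in the Sall3-positive cells and almost none elsewhere, and was not tested. Among the other Sall genes, Sall2 stood at 94.4 and 103 against 58.7 and 62.8 (log2 difference 0.74, adjusted p = 0.00545). Sall1 stood at 72.2 and 39.5 against 28.6 and 24.2 (log2 difference 0.89, adjusted p = 0.0438). Sall4 was too low to test, at 3.7 and 5.26 against 4.73 and 2.85. Of the 10 Sall and Irx genes listed, 7 were tested, 5 were higher and 1 was lower, with a median log2 difference of 0.89 beside -0.02 over all 10142 genes tested, of which 4.31% were called in either direction, 1.17% as higher and 3.14% as lower. When cells with 3 or more markers of another cell type were left out and cycle states pooled, Irx3, Irx5, Irx6 and Crnde still passed, Irx2 was called lower as well, and Sall1 (log2 difference 0.92, adjusted p = 0.147) and Sall2 (log2 difference 0.56, adjusted p = 0.176) did not pass. The Sall1 difference was no smaller than with all cells.

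**Figure D1:**
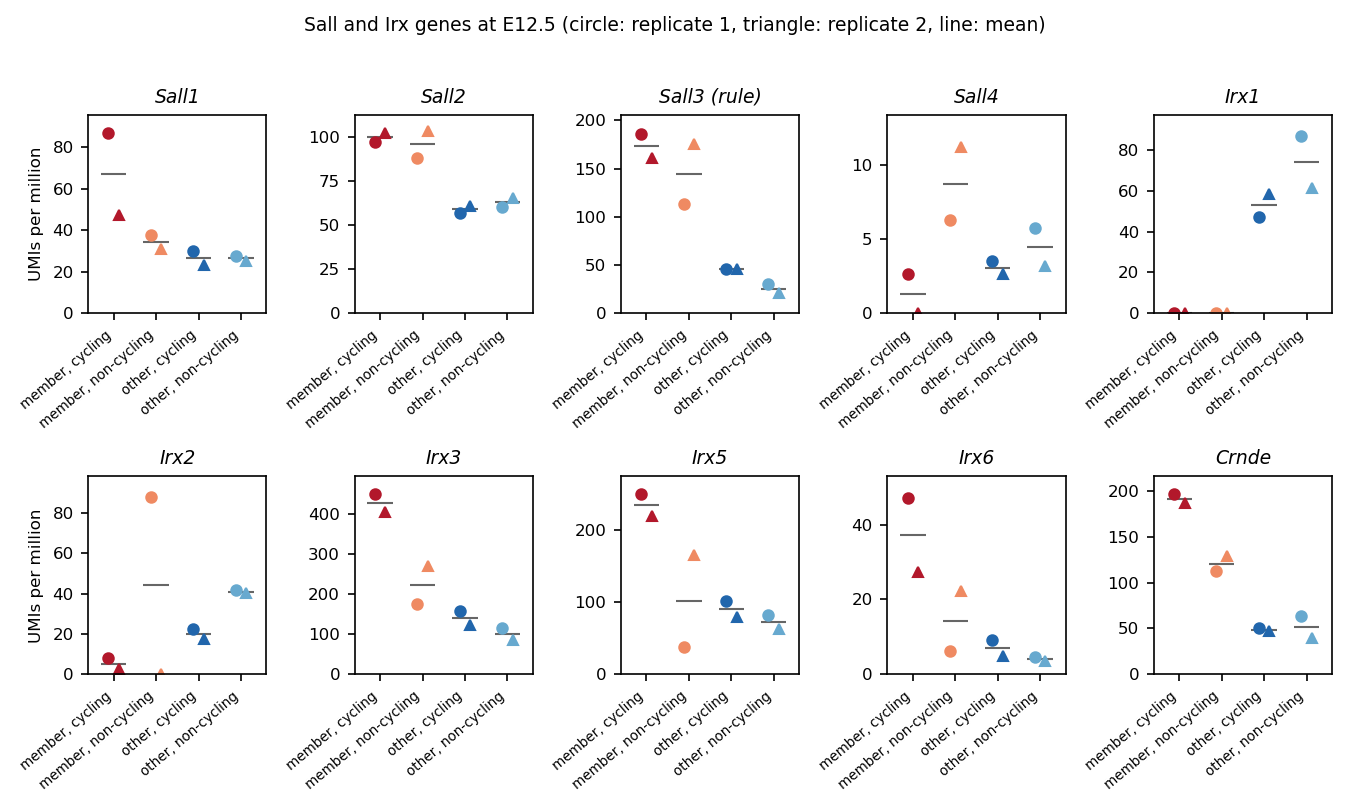
Levels of the Sall and Irx genes and Crnde in CPM (y axes, linear, starting at 0) in Sall3-positive cells (member) and other Epcam-positive cells, cycling and non-cycling, with a circle for replicate 1, a triangle for replicate 2 and a line at their mean. Irx3 reached 451 and 405 in cycling Sall3-positive cells, above all other sums, Irx1 was at 0 in the Sall3-positive cells, and the single high Irx2 point of non-cycling cells is replicate 1.

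The share of cells with an Irx3 UMI was 84.0% of the Sall3-positive cells in replicate 1 (21 of 25, interval 63.9 to 95.5) and 76.3% in replicate 2 (29 of 38, 59.8 to 88.6). In Epcam-negative cells with neuron markers, which serve here as the background for free RNA, the shares were 10.5% (31 of 294) and 6.12% (15 of 245), at median depths of 17843 and 20607 UMIs against 22273 and 17019.5. With every cell thinned to 8000 UMIs, the shares were 18 of 23 and 24 of 34 Sall3-positive cells and 13 of 287 and 7 of 241 of the neuron-marker cells. Irx3 and Irx5 were found together in 15 of 25 and 29 of 38 cells. Cells that lacked Sall3 and all the excluded genes had an Irx3 UMI in 27 of 54 and 37 of 71 cases. In those cells Irx3 stood at 96.5 and 102 CPM, against 325 and 254 in Sall3-positive cells with 1 Sall3 UMI and 362 and 419 in those with 4 or more. In between, cells with 2 to 3 Sall3 UMIs stood at 430.2 (7 cells) and 149.8 (9 cells). Irx3 was thus higher at each count of Sall3 above 0 in both libraries, and above 0 the libraries gave no common order. Cells with 4 or more Sall3 UMIs were also deeper, with median depths of 31508 and 25179 UMIs against 12758 and 14598 for cells with 1, and the part of depth in these levels was not tested.

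**Figure D2:**
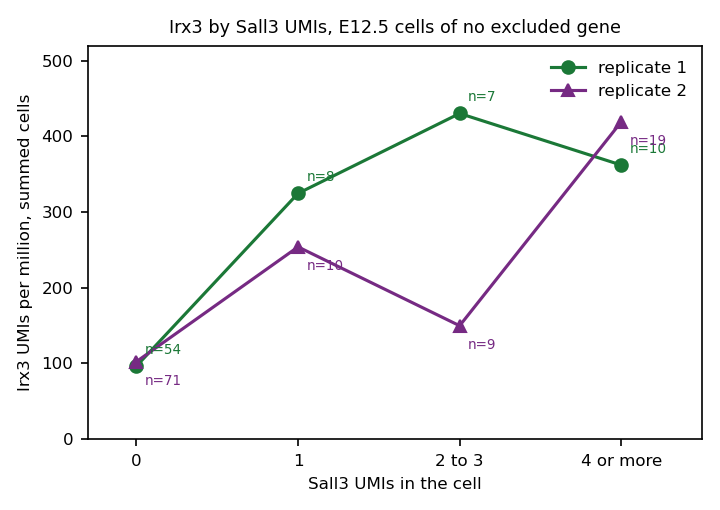
Irx3 in CPM of summed cells (y axis, linear) by the number of Sall3 UMIs in the cell (x axis), for E12.5 Epcam-positive cells with none of the excluded genes, with 1 line per library and the number of cells at each point. Both libraries stood near 100 at 0 Sall3 UMIs (96.5 and 102) and higher at 1 or more, with the replicate 2 point for 2 to 3 UMIs at 149.8. The cells at 0 also had the most Tubb3, a neuronal tubulin (879 and 579 CPM).

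Besides Crnde and Irx3, the 10 largest increases held a homeodomain factor, a Myc-family factor and a Wnt receptor. Emx2, a homeodomain factor of the cochlear epithelium, stood at 70.3 and 65.8 against 40.01 and 33.3 in the other Epcam-positive cells (log2 difference 0.97, SE 0.21, adjusted p = 0.00785). Mycn, a Myc-family factor needed for otic growth, stood at 133 and 134 against 61.1 and 68.3 (log2 difference 1.002, SE 0.16, adjusted p = 0.000546). Fzd7, a Wnt receptor, stood at 75.9 and 84.2 against 42.6 and 40.2 (log2 difference 0.99, SE 0.19, adjusted p = 0.00269). In each of these genes both libraries of Sall3-positive cells lay above both libraries of other cells. Brip1, a DNA helicase of the S-phase list, stood at 120.3 and 121 against 47.3 and 48.2 (log2 difference 1.24, adjusted p = 0.000136), and was the only one of 42 S-phase genes called, while 0 of 52 G2/M genes were. Fam102b, Hs3st6, Car13 and Rasgrf1 completed the 10 largest increases, with log2 differences of 1.25, 1.16, 1.07 and 0.96. Hs3st6, a heparan sulfate sulfotransferase, stood at 68.5 and 133. Without cells with 3 or more markers of another type, Emx2 (adjusted p = 0.206), Car13 (adjusted p = 0.0898) and Rasgrf1 (adjusted p = 0.33) no longer passed. Against Bmp4 cells, compared below, Emx2, Car13 and Rasgrf1 were lower in both libraries without passing (log2 differences -0.53, -0.39 and -0.62). Mycn (0.39, adjusted p = 0.344), Fzd7 (0.31, adjusted p = 0.599) and Hs3st6 (-0.21, adjusted p = 0.729) did not pass either. Brip1 (2.28, adjusted p = 1.49e-05) and Fam102b (1.59, adjusted p = 0.00135) were called higher there.

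The largest decreases were in genes of the duct roof, of dorsal and vestibular epithelium and of neurons, and the rule had set cells with Otx2, Hmx2 or Hmx3 aside. Oc90, the otoconial protein otoconin, stood at 27.8 and 15.8 in Sall3-positive cells and 2485 and 2201 in the others (log2 difference -6.85, SE 0.19, adjusted p = 2.2e-15). Ttr, the thyroid hormone carrier transthyretin, stood at 3.7 and 13.2 against 855 and 1751 (log2 difference -6.73, adjusted p = 3.31e-06). Pthlh, a parathyroid hormone-like peptide, had no UMI in Sall3-positive cells and stood at 77.7 and 78.4 in the others, at least 33.8-fold lower. Zpld1 and Penk also had none, at least 15.8-fold and 18-fold lower. Ccnd2, a D-type cyclin, stood at 1.85 and 5.26 against 116 and 107 (log2 difference -4.93, adjusted p = 1.33e-06). The neuronal genes Gap43, Ina and Insm1 made up the rest of the 10 largest decreases, with log2 differences of -6.46, -6.17 and -5.72. In the cells set aside by Hmx2, Hmx3 or Otx2, Oc90 stood at 4812 and 2963 in Hmx cells and 6606 and 5329 in Otx2 cells, and Pthlh at 216 and 177 in Hmx cells. Of the roof genes, 4 of 5 tested were lower (median log2 difference -4.09), as were 4 of 6 vestibular genes (median -4.25). These counts partly follow from the rule, since cells with Otx2, Hmx2 or Hmx3 were put in the group they were compared with.

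Of 30 otic transcription factors, 25 were tested, 4 were higher and 11 were lower, with a median log2 difference of -0.09. Nr2f1, an orphan nuclear receptor of the duct, stood at 581 and 660.3 against 368 and 318 (log2 difference 0.92, SE 0.12, adjusted p = 5.55e-05). Eya1, a coactivator of otic development, stood at 159 and 185 against 112 and 100.3 (log2 difference 0.79, SE 0.13, adjusted p = 0.000649). Gata3, a zinc-finger factor of the cochlear floor, passed the test (log2 difference 0.70, adjusted p = 0.00743) with libraries that did not point one way, at 372 and 673 against 403 and 313, and within replicate 1 alone its log2 difference was -0.11. Meis2 was lower, at 9.26 and 10.5 against 149 and 193 (log2 difference -4.28, adjusted p = 2.48e-08), and so was Tbx3, at 11.1 and 6.58 against 77.9 and 77.6. Dlx5 and Msx1, factors of the dorsal and lateral otic epithelium, had log2 differences of -4.41 and -2.22. Without the cells with markers of other types, Nr2f1 was the only factor of the list called higher and 7 were lower, among them Meis2, Tbx3, Dlx5 and Msx1.

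Of 12 prosensory genes tested, none was higher and Prox1 and Isl1 were lower. Jag1, a Notch ligand of the prosensory domain, stood at 291 and 271 against 258 and 226 (log2 difference 0.26, adjusted p = 0.176). Isl1, a LIM homeodomain factor of the prosensory floor and of otic neurons, stood at 226 and 310.4 against 362 and 337 (log2 difference -0.69, adjusted p = 0.0009), and this value averages opposite differences in cycling and non-cycling cells that are given below. The hair cell list summed to 505 and 14.5 CPM against 161 and 171. Pou4f3, a hair cell transcription factor, was called higher (log2 difference 2.46, adjusted p = 0.0419) on 2 cells of replicate 1, at 102 and 0 against 11.6 and 9.76. These 2 cells had 37 and 18 Pou4f3 UMIs, 12 and 23 UMIs of Atoh1, the factor that starts hair cell formation, and no Irx3. With 1 further cell with a single Atoh1 UMI they were left out in a further comparison that was added once these values were known, and Pou4f3 then had a log2 difference of -8.08.

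In 6 lists of signalling genes the calls are read beside the 4.31% of all genes called. Among 24 Wnt pathway genes, Fzd7, the secreted inhibitor Sfrp1 (465 and 567 against 370.2 and 329) and the cyclin and Wnt target Ccnd1 (428 and 618 against 381 and 403) were higher, and the ligands Wnt3, Wnt4, Wnt5a and Wnt11, the Wnt agonist Rspo3 and the nuclear effector Lef1 were lower (list median -0.49). Among 14 Notch genes the target Nrarp was higher (92.6 and 94.7 against 67.6 and 56.3) and the receptor Notch2 lower, and Nrarp lost its call without 1 cell of replicate 2 that held 28 of its UMIs (log2 difference 0.35, adjusted p = 0.382). Of 12 FGF genes none was higher, and the receptor Fgfr2 and the ligands Fgf3 and Fgf9 were lower. In the BMP and activin list, 2 of 19 were higher: Smad7, an inhibitor induced by the pathway, at 135 and 155 against 107 and 99.7 (log2 difference 0.52, adjusted p = 0.0293), and the activin subunit Inhba, at 16.7 and 14.5 against 3.94 and 1.95 (log2 difference 2.46, adjusted p = 0.0416). Nog, Id4 and Bambi were lower. The retinoic acid-binding protein Crabp2 was higher (555 and 551 against 447 and 451) and Aldh1a2 and Cyp26a1 lower among 14 tested. Of 9 hedgehog genes, the co-receptor Cdon was lower.

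Some dissociation-response genes were lower and some ribosomal protein genes higher. Of 18 genes induced by tissue dissociation 8 were lower and none higher, with Fos at 92.6 and 151 against 655 and 714 (log2 difference -2.42, SE 0.20, adjusted p = 3.15e-07). Fos was not low in Sall3-positive cells alone, since it stood at 137 and 190.3 in Fgf20 cells and 241 and 253 in Sall3-negative cells. Of 101 ribosomal protein genes 24 were higher and none lower, with a median log2 difference of 0.18, and 0 of 13 mitochondrial genes were called. Markers of other cell types moved with the comparison: neuron markers summed to 322 and 369.6 CPM against 915 and 839, with 8 of 11 lower. Isl1 is in that list and made up most of the sum in Sall3-positive cells, and without it the sums were 96.3 and 59.2 against 553 and 503 CPM. In all, 6 of 25 and 6 of 38 Sall3-positive cells against 84 of 224 and 128 of 280 other cells had 3 or more markers of another type. No UMI of the macrophage or erythroid lists was found in Sall3-positive cells. Without all cells with 3 or more such markers, in both groups and with cycle states pooled, 189 genes were called, against 599 with pooled states and all cells and 437 with states kept apart, and 167 of the 189 were among the 437. Tubb3, a neuronal tubulin called lower (44.4 and 40.8 against 195 and 161, log2 difference -1.80, adjusted p = 1.11e-05), then had a log2 difference of 0.98.

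Next, Sall3-positive cells were set against Epcam-positive cells that carried a single kind of excluded gene. These comparisons share the Sall3-positive sums, so their results are not independent of one another. Against Fgf20 cells (33 and 37 cells), 13 of 8890 genes were called, 0.146%, 2 of them higher (0.0225%) and 11 lower (0.124%), with 633 genes with an unadjusted p under 0.05. Irx3 stood at 370.2 and 342 against 278 and 257 (log2 difference 0.42, SE 0.22, adjusted p = 0.749), Sox2 at 133 and 128 against 183 and 199.7 (log2 difference -0.55, SE 0.16, adjusted p = 0.32) and Jag1 at 291 and 271 against 488 and 437 (log2 difference -0.72, SE 0.17, adjusted p = 0.12). None of the 3 passed, which does not show that the groups were alike. Fgf20 itself had 197 UMIs over all the Fgf20 cells. At such counts some cells with Fgf20 mRNA may have shown none and been taken as Sall3-positive cells. On simulated data of this comparison the test recovered 24% of 2-fold and 98% of 4-fold changes. The simulation gave every gene the same spread, held no library effect and changed only genes above a minimum level. These rates hold for that setting, and the real sums may vary more.

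Igfbp2, an insulin-like growth factor-binding protein, was higher in Sall3-positive than in Fgf20 cells, at 154 and 78.9 against 27.1 and 35.2 (log2 difference 1.84, SE 0.34, adjusted p = 0.0451). Moxd1, a monooxygenase-like protein, was lower, at 59.2 and 52.6 against 177 and 194 (log2 difference -1.73, SE 0.21, adjusted p = 0.000745). Ntf3, the neurotrophin made by cochlear epithelium, stood at 62.9 and 71 against 187 and 167 (log2 difference -1.38, SE 0.27, adjusted p = 0.0482). Fgf10, a ligand of the neurosensory and medial duct, stood at 9.26 and 10.5 against 48.5 and 45.8 (log2 difference -2.24, SE 0.41, adjusted p = 0.0451). Hmga2, a chromatin protein, stood at 124 and 306 against 608 and 579 (log2 difference -1.44, adjusted p = 0.00295), Ebf1 at 270.2 and 210.5 against 542 and 613 (log2 difference -1.28, adjusted p = 0.0482), and Bcl2, an inhibitor of apoptosis, had a log2 difference of -1.58. The reporter Egfp was lower as well, at 341 and 404 against 655 and 562 (log2 difference -0.69, adjusted p = 0.0482). These sums pooled cycling and non-cycling cells. Within Sall3-positive cells Hmga2 and Egfp were both lower in cycling cells, as given below. The part of cycle state in the differences from Fgf20 cells was not tested. The count of calls moved with the settings: it was 3 with a mitochondrial limit of 5%, 8 without the Atoh1 or Pou4f3 cells and 24 without cells with markers of other types. With DESeq2 it was 6, 2 higher and 4 lower, against 2 higher and 11 lower with edgeR.

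Against Bmp4 cells (33 and 29 cells), 312 genes were called, 3.51%, with 122 higher (1.37%) and 190 lower (2.14%). Some genes of the lateral duct and of the BMP response were lower in Sall3-positive cells. Called lower were 6 of 10 lateral genes and 6 of 20 BMP and activin genes, and none of either list was called higher. The list medians were -0.60 and -0.53 beside -0.02 over all genes. Dlx3 (log2 difference 3.85, adjusted p = 0.0863) and Bmpr1b (1.40, adjusted p = 0.0685) of the lateral list were higher in both libraries without passing. The lists overlap: Id1, Id2, Id3, Id4 and Fst are lower genes of both, joined by Gata2 in the lateral and Bambi in the BMP list. Id4, an inhibitor of basic helix-loop-helix factors induced by BMP, had a log2 difference of -1.64, and Id1, Id2 and Id3 of -0.60, -0.61 and -0.57. Fst, the activin inhibitor follistatin, stood at 85.1 and 269.7 against 742 and 1149 (log2 difference -2.37, SE 0.33, adjusted p = 0.00028). Msx1 stood at 7.4 and 17.1 against 185 and 229 (log2 difference -4.01, SE 0.38, adjusted p = 4.22e-06), and its paralogue Msx2 at 1.85 and 1.32 against 49.3 and 57 (log2 difference -5.05, adjusted p = 2.75e-05). Irx1 was at least 23.5-fold lower. Gata2 stood at 27.8 and 21 against 120.0 and 106, Gata3 at 372 and 673 against 978 and 1073, Isl1 at 226 and 310.4 against 676 and 835 and Jag1 at 291 and 271 against 521 and 410.1, and all 4 were called lower. Bmp4 itself is a gene of the rule and sets these groups apart by construction. How far the differences in other genes go with Bmp4 was not tested.

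Higher in Sall3-positive than in Bmp4 cells were Sox2, at 133 and 128 against 44 and 63.5 (log2 difference 1.26, SE 0.20, adjusted p = 0.00101), and Ebf1, at 270.2 and 210.5 against 20.0 and 22.8 (log2 difference 3.44, SE 0.41, adjusted p = 5.92e-05). Aldh1a3, an enzyme of retinoic acid synthesis, stood at 146 and 158 against 30.7 and 6.51 (log2 difference 2.93, SE 0.37, adjusted p = 0.000108). The Notch modifier Lfng stood at 13 and 17.1 against 0 in both libraries, and replicate 2 fell to 1.34 without the 1 cell that held 12 of the 20 Lfng UMIs. Pantr1, Pcp4 and Cryab were also among the 5 largest increases, but uneven between libraries, with Pcp4 at 220.3 and 36.8 and Cryab at 178 and 44.7 in Sall3-positive cells. Irx3 did not pass the test between these groups, at 370.2 and 342 against 328 and 243 (log2 difference 0.30, SE 0.22, adjusted p = 0.554). Nor did Irx5, at 187 and 193 against 209 and 159.5 (log2 difference 0.03, SE 0.21, adjusted p = 0.977). Crnde did not pass against Bmp4 cells (log2 difference 0.29, SE 0.21, adjusted p = 0.562) or against Fgf20 cells (0.46, SE 0.21, adjusted p = 0.688). The share of cycling cells moved with the comparison, at 24.2% and 27.6% of Bmp4 cells against 15 of 25 and 18 of 38 Sall3-positive cells, and 5 of 51 G2/M genes were higher. Its part in the other differences was not tested.

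Sall3-negative cells (54 and 71 cells) met every condition of the rule except for having no Sall3 UMI. Here 684 genes were called, 7.69%, with 239 higher (2.69%) and 445 lower (5.01%) in Sall3-positive cells, and 5 Sall and Irx genes were higher and Irx1 lower among 7 tested (median log2 difference 1.505 beside 0.01 over all genes). Irx3 stood at 370.2 and 342 against 96.5 and 102 (log2 difference 1.85, SE 0.24, adjusted p = 4.52e-05), Irx5 at 187 and 193 against 59.5 and 61.3 (log2 difference 1.67, SE 0.23, adjusted p = 9.73e-05) and Crnde at 172 and 159 against 42.1 and 36.4 (log2 difference 2.10, SE 0.24, adjusted p = 1.08e-05). Of 26 otic transcription factors 8 were higher and 8 lower, with Sox10 at 157 and 163 against 62.6 and 59.7 (log2 difference 1.42, SE 0.16, adjusted p = 1.49e-05) and Pax2 at 46.3 and 64.5 against 19.5 and 18.6 (log2 difference 1.59, SE 0.36, adjusted p = 0.00773). Fam107a, Hs3st6, Ephb1, Crnde and Fam102b were the 5 largest increases, with log2 differences of 2.45, 2.22, 2.20, 2.10 and 1.88.

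The Sall3-negative group held many cells with neuronal transcripts. Neuron markers summed to 3073 and 2296 CPM there against 322 and 369.6 in Sall3-positive cells (2529 and 1795 against 96.3 and 59.2 without Isl1), all 11 were lower in Sall3-positive cells, and Tubb3 stood at 44.4 and 40.8 against 879 and 579. Epha5, an ephrin receptor, stood at 0 and 1.32 against 116 and 122 (log2 difference -7.05, adjusted p = 4.44e-07). Cells with 3 or more markers of another type made up 28 of 54 and 41 of 71 Sall3-negative cells. Without them, and with 19 and 32 Sall3-positive cells left, 148 genes were called, 80 of them shared with the 684. Irx3 (log2 difference 1.054, SE 0.20, adjusted p = 0.00263), Irx5 (0.95, adjusted p = 0.0366), Irx6 (3.74, adjusted p = 0.0201) and Crnde (1.13, adjusted p = 0.00664) passed in that comparison. Sox10 (log2 difference 0.44, adjusted p = 0.315), Pax2 (0.77, adjusted p = 0.278), Sox9 (0.03, adjusted p = 0.977) and Jag1 (-0.01, adjusted p = 0.988) did not. Of the BMP and activin genes, 6 of 20 were higher with all cells, among them Id1, Id2, Id3 and Smad7, and none of 18 without the cells with other markers, where Fst and Bambi were lower.

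**Figure D3:**
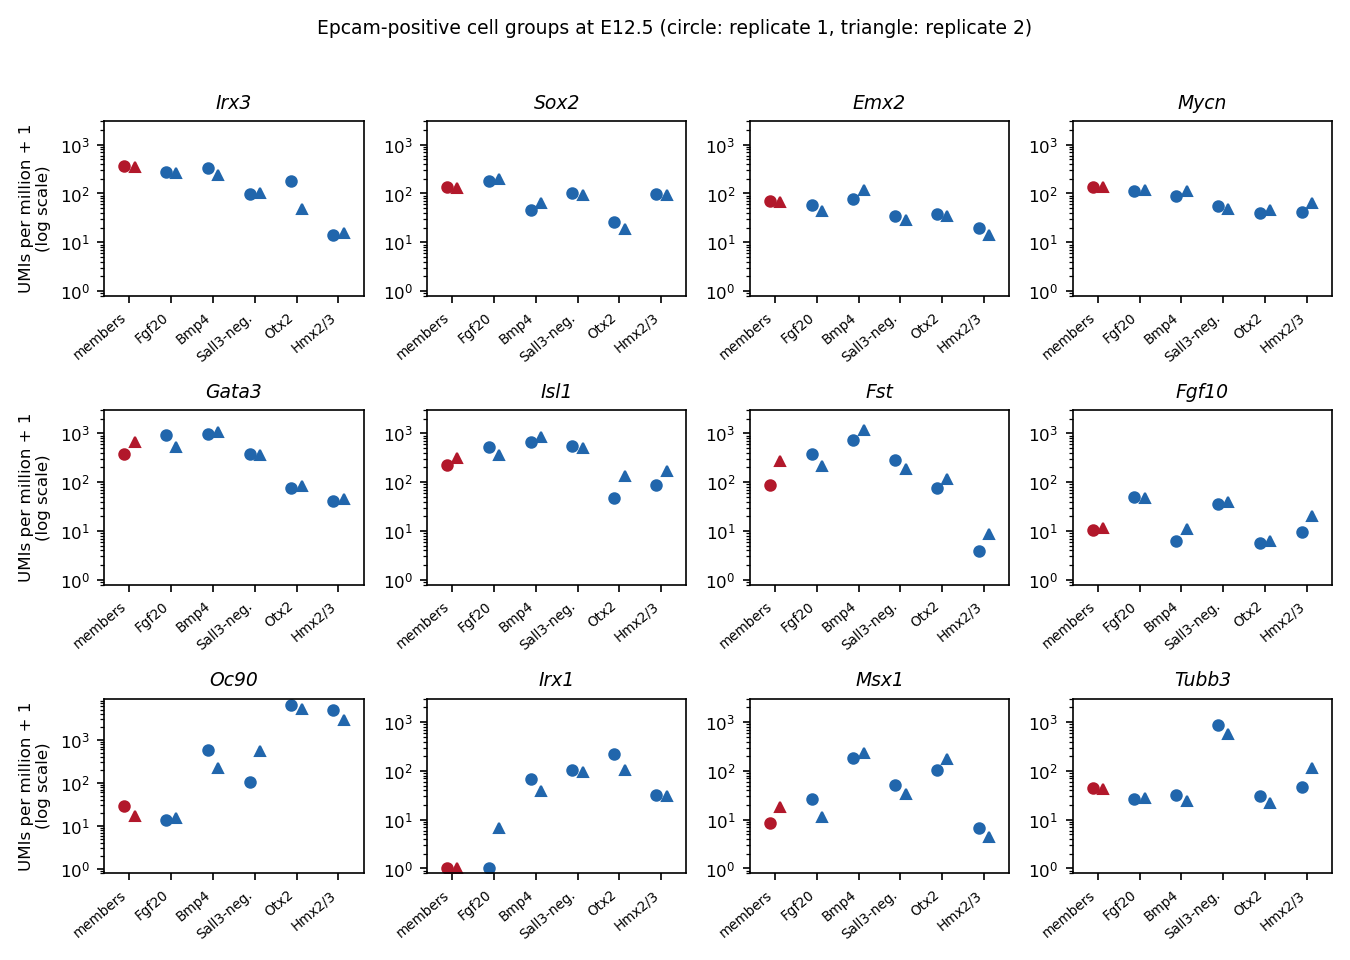
Levels of 12 genes in 6 groups of Epcam-positive E12.5 cells, in CPM plus 1 on a log axis, with Sall3-positive cells (members) in red, the other groups in blue, circles for replicate 1 and triangles for replicate 2. Irx3 lies close in Sall3-positive, Fgf20 and Bmp4 cells and is lowest in Hmx cells (13.4 and 14.7). Irx1 is at 0 in Sall3-positive cells and has 5 UMIs in all in Fgf20 cells. Tubb3 is highest in Sall3-negative cells.

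Cycling and non-cycling Sall3-positive cells were then taken apart. A cell was called cycling where its S or G2/M gene score was above 0 and led, which put 15 of 25 cells (interval 38.7 to 78.9%) and 18 of 38 (47.4%, 31.0 to 64.2) in cycle, 7 and 8 of them in S phase and 8 and 10 in G2/M. With cells thinned to 8000 UMIs the counts were 12 of 23 and 17 of 34. In the other Epcam-positive cells the shares were 41.1% (92 of 224) and 48.2% (135 of 280), so replicate 1 was higher in Sall3-positive cells and replicate 2 was not. No test of these shares was made. Cycling cells were deeper, with median depths of 24167 and 20051.5 UMIs against 13975.5 and 15713 for non-cycling cells, and 1 and 4 cells lay near the limit of the score.

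Irx3 was higher than in the other Epcam-positive cells in both states, at 451 and 405 against 158 and 124 in cycling cells (log2 difference 1.63, SE 0.15, adjusted p = 2.25e-06) and 176 and 271 against 115 and 85.8 in non-cycling cells (log2 difference 1.37, SE 0.20, adjusted p = 0.000562). In cycling cells 173 of 10142 genes were called (1.71%), 0.404% as higher and 1.3% as lower, and in non-cycling cells 206 (2.03%), 0.661% as higher and 1.37% as lower. Irx5 passed in cycling cells, at 249 and 219 against 102 and 79.1 (log2 difference 1.39, adjusted p = 0.00132), and not in non-cycling cells, where the libraries stood apart at 37.7 and 165 against 82.4 and 62.7 (log2 difference 0.88, adjusted p = 0.207). The difference between the states was not called for Irx3 (log2 difference 0.26, adjusted p = 0.928) or Irx5 (log2 difference 0.51, adjusted p = 0.884). Sox2 passed in non-cycling cells, at 169.7 and 187 against 78.1 and 104 (log2 difference 1.07, SE 0.22, adjusted p = 0.011), and not in cycling cells, at 118 and 74.6 against 116 and 101 (log2 difference -0.16, SE 0.22, adjusted p = 0.862), and the difference between these differences did not pass (log2 difference -1.23, adjusted p = 0.171). Among prosensory and Notch genes in non-cycling cells, Lfng stood at 44 and 36.3 against 6.81 and 7 (log2 difference 2.60, adjusted p = 0.0129), the ligand Dll1 at 75.4 and 25.1 against 5.02 and 8.75 (log2 difference 2.68, adjusted p = 0.0393) and the target Nrarp at 145 and 142 against 59.8 and 57.8 (log2 difference 1.39, adjusted p = 0.00102). These 3 were the called genes of 14 in the Notch list. All 3 calls rested on 1 cell of replicate 2, the one that also held 18 Neurod1 UMIs, with 12 UMIs of Lfng, 8 of Dll1 and 28 of Nrarp. Without it, replicate 2 stood at 2.92 for Lfng, 2.92 for Dll1 and 67.1 for Nrarp, the adjusted p-values were 0.553, 0.33 and 0.179, and 0 of 14 Notch genes were called. Sox2 (log2 difference 1.03, adjusted p = 0.0137) and Isl1 (log2 difference 0.55, adjusted p = 0.0318) kept their calls without that cell. In cycling cells no Notch gene was called. With DESeq2, 96 genes were called in non-cycling cells, 43 higher and 53 lower, against 67 higher and 139 lower with edgeR.

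Within the Sall3-positive cells, 311 of 10048 genes differed between cycling and non-cycling cells (3.1%), 219 higher (2.18%) and 92 lower (0.916%) in cycling cells, with the genes of the 2 scores kept out of the test. Mitotic genes outside the score lists were at 0 in all 30 non-cycling cells: Ccnb1, a mitotic cyclin, stood at 165 and 162 in cycling cells and was at least 28.2-fold higher, Ccna2 at 115 and 154 and at least 23.3-fold, and Prc1 at 97.1 and 96.9 and at least 16.7-fold. Kif20a, Pbk, Sgol2a, Ncapg, Fam64a and Plk1 were also among the 10 largest increases and at 0 in non-cycling cells, with Plk1 at least 9.46-fold higher. These genes follow the scores that made the split. Irx3 was also higher in cycling cells (log2 difference 0.85, SE 0.20, adjusted p = 0.0184), and the hedgehog co-receptor Gas1 stood at 241 and 239 against 176 and 134 (log2 difference 0.72, adjusted p = 0.0403).

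Of 25 otic transcription factors tested between the states, Gata3, Nr2f2 and Isl1 were lower in cycling cells and none was higher. Isl1 stood at 70.8 and 72.1 in cycling and 597 and 578 in non-cycling Sall3-positive cells (log2 difference -2.99, SE 0.19, adjusted p = 5.61e-09). Nr2f2, an orphan nuclear receptor, stood at 7.87 and 9.94 against 113 and 193 (log2 difference -4.15, SE 0.44, adjusted p = 5.51e-06). Fst stood at 5.25 and 59.7 against 277 and 506 (log2 difference -3.57, SE 0.44, adjusted p = 4.2e-05). Hmga2 stood at 15.7 and 102 against 383 and 536 (log2 difference -2.94, SE 0.34, adjusted p = 1.67e-05). In each of these 4 genes the libraries did not overlap between states. Gata3 stood at 262 and 505 against 635 and 863 (log2 difference -0.95, SE 0.23, adjusted p = 0.026), and the reporter Egfp at 257 and 296 against 541 and 525 (log2 difference -0.89, adjusted p = 0.00135). Sox2 had the same direction without passing, at 118 and 74.6 against 169.7 and 187 (log2 difference -0.87, adjusted p = 0.0888). Lfng was at 0 in cycling cells and at 44 and 36.3 in non-cycling ones, at least 10.1-fold lower, but without the cell with 12 of its 20 UMIs the bound was 4.16-fold and the call was lost (adjusted p = 0.107). Isl1, Nr2f2, Fst and Gata3 passed without that cell. Krt8, a keratin of simple epithelia, stood at 184 and 201 against 704 and 564 (log2 difference -1.63, adjusted p = 3.48e-06), and the type IX collagen genes Col9a1 and Col9a2 had log2 differences of -0.87 and -0.81. Cell cycle inhibitors Cdkn1a and Btg2 were lower in cycling cells, with log2 differences of -1.60 and -1.21.

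The rest of the 10 largest decreases in cycling cells rested on fewer cells. Dcn, the proteoglycan decorin, stood at 0 and 7.46 against 75.4 and 53.1, Rprm, a cell cycle arrest gene, at 10.5 and 2.49 against 56.6 and 55.9, and Unc5c, a netrin receptor, had a log2 difference of -5.19. Tac1 was at 0 in cycling cells and at 6.29 and 120.1 in non-cycling ones, from 5 cells. Tagln was at 0 against 119 and 16.8, with 68.0% of its UMIs in 1 cell. Neurod1, a neuronal differentiation factor, was at 0 against 6.29 and 53.1, with 18 of its 20 UMIs in 1 cell of replicate 2, and lost its call without that cell.

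The state changed the comparison with the other Epcam-positive cells for 14 of 10142 genes (0.138%, with 641 at an unadjusted p under 0.05), all with a lower difference in cycling cells. Isl1 was lower in cycling Sall3-positive cells than in other cycling cells, at 70.8 and 72.1 against 248 and 285 (log2 difference -1.89, SE 0.18, adjusted p = 3e-06), and higher in non-cycling ones, at 597 and 578 against 456 and 406 (log2 difference 0.51, SE 0.13, adjusted p = 0.0431). Its difference of differences was -2.40 on the log2 scale (SE 0.23, adjusted p = 7.15e-06) and had this direction in both libraries. For Hmga2, at 15.7 and 102 against 214 and 243 in cycling and 383 and 536 against 408 and 356 in non-cycling cells, it was -2.29 (adjusted p = 0.0107). For the reporter Egfp it was -1.18 (adjusted p = 0.00525).

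Cell by cell, high Isl1 and high Irx3 were mostly found in different Sall3-positive cells. Of 33 cycling cells 5 had at least 3 Isl1 UMIs per 10000 UMIs, and of 30 non-cycling cells 19 did (6 of 10 and 13 of 20 in the 2 libraries). Among the cycling cells at or above this level the highest Irx3 was 1.18 per 10000 UMIs, and among those below it 13.4. That 13.4 was 3 Irx3 UMIs in a cell of only 2239 UMIs. A cycling cell of replicate 1 just under the level, at 2.78 Isl1 UMIs per 10000, had 6.94 for Irx3. The limit of 1.18 thus depends on where the level was set. Among the non-cycling cells the highest values were 2.62 and 8.45, and the medians 0.979 and 2.27. Cells at or above the level were shallower than those below it, with median depths of 14075 against 23562.5 UMIs in cycling cells and 14279 against 17621 in non-cycling cells. The part of depth in these values was not tested. All 4 of Isl1, Gata3, Fst and Nr2f2 were present together in 13 of the 30 non-cycling cells (4 and 9 in the 2 libraries) and in 0 of the 33 cycling cells, although the cycling cells were deeper. The level of 3 and the 4 genes were chosen after their values were seen, and a single cell holds few UMIs of any gene, so these counts are a description without a test.

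**Figure D4:**
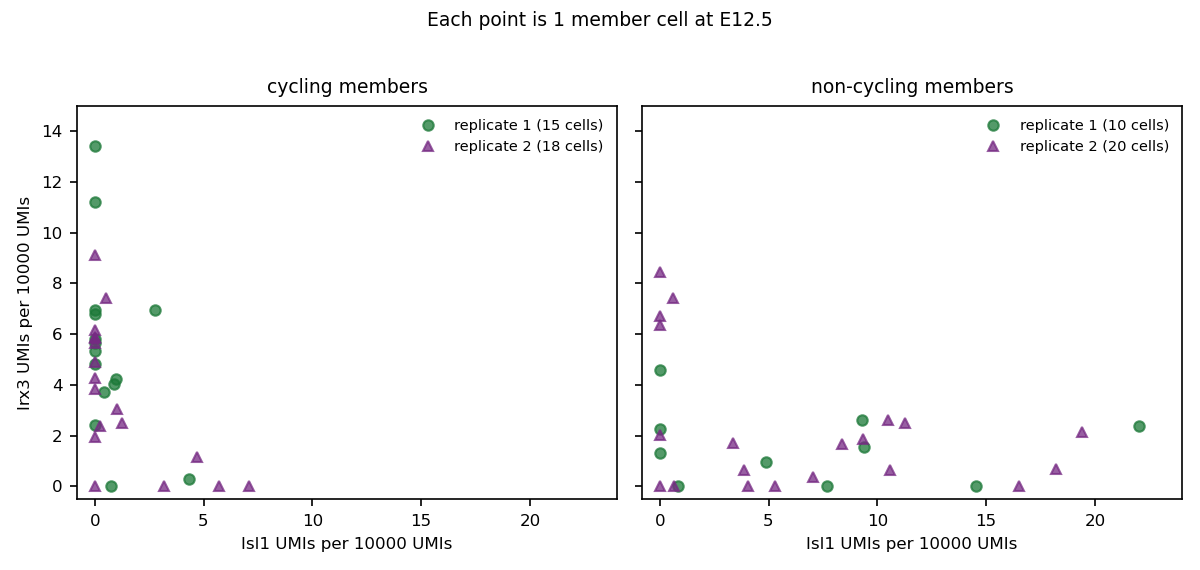
Irx3 (y axis) against Isl1 (x axis) in UMIs per 10000 UMIs of the cell, both linear, with 1 point for each of the 63 Sall3-positive cells, circles for replicate 1 and triangles for replicate 2, cycling cells on the left and non-cycling cells on the right. Cells with 3 or more Isl1 UMIs per 10000 reach at most 1.18 (cycling) and 2.62 (non-cycling) Irx3 UMIs per 10000.

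The same rule was applied at E14.5, where it took 34 of 836 Epcam-positive cells (4.07%) and 141 of 1794 (7.86%). These cells had not been used to choose the E12.5 cells. Xist was present in 25 of 25 and 37 of 38 of these cells at E12.5 and in 0 of 34 and 2 of 141 at E14.5, and Y-linked transcripts were in 0 and 0 cells at E12.5 and in 32 and 132 at E14.5, so age, the sex of the embryos and the preparation cannot be told apart. Of 8069 genes 572 were called (7.09%), 296 higher (3.67%) and 276 lower (3.42%) at E14.5. Sall3 stood at 69.9 and 90.7 at E14.5 and 165 and 168 at E12.5, as a description. No other gene of the Sall and Irx families was called among 6 tested. Irx3 stood at 276 and 363 against 370.2 and 342 (log2 difference -0.13, SE 0.15, adjusted p = 0.662) and Irx5 at 197 and 272 against 187 and 193 (log2 difference 0.33, SE 0.17, adjusted p = 0.282). Sox2 stood at 177 and 153 against 133 and 128 (log2 difference 0.34, SE 0.16, adjusted p = 0.252). Crnde, beside Irx5, was lower at E14.5, at 83.2 and 109 against 172 and 159 (log2 difference -0.74, adjusted p = 0.0269).

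Of 9 medial duct genes tested 8 were higher at E14.5 and none lower, with a median log2 difference of 2.57 beside 0.02 over all genes. Tecta and Tectb, proteins of the tectorial membrane, stood at 353 and 447 against 27.8 and 9.21 (log2 difference 4.55, SE 0.30, adjusted p = 4.07e-05) and 172 and 224 against 11.1 and 1.32 (log2 difference 5.19, SE 0.40, adjusted p = 9.01e-05). Epyc, the proteoglycan epiphycan, stood at 79.8 and 74.9 and had no UMI at E12.5, at least 32.9-fold higher. Tmem132c and Upp1 were also at 0 at E12.5, at least 39.7-fold and 24-fold higher. Fgf10 stood at 51 and 65.2 against 9.26 and 10.5 (log2 difference 2.57, adjusted p = 0.00176). Of 13 matrix genes 6 were higher, with log2 differences of 0.89 for Col2a1 and 0.87 for Col9a2. Of 19 Wnt genes 7 were higher, with the ligands Wnt5a at 67.6 and 101 against 7.4 and 13.2 (log2 difference 3.01, adjusted p = 0.00105) and Wnt7a at 20.0 and 23.2 against 5.55 and 2.63 (log2 difference 2.49, adjusted p = 0.0171). The homeodomain factor Lhx2 stood at 68.8 and 109 against 0 and 1.32. Efhd1, Sparcl1, Gap43, Gsn and Stmn3 filled the rest of the 10 largest increases, with Gsn, the actin-severing protein gelsolin, at 131 and 168 against 3.7 and 3.95 (log2 difference 5.27, adjusted p = 2.72e-05).

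Of 13 Notch genes Hey1 and Hes1 were lower at E14.5 and none was higher. Hes1, a transcriptional repressor and Notch target, stood at 141 and 155 against 1125 and 771 (log2 difference -2.65, SE 0.18, adjusted p = 4.09e-05). Id1 and Id3 had log2 differences of -1.08 and -1.72, the BMP receptor gene Bmpr1b of -1.90 and Smad7 of -1.29. Of 17 BMP and activin genes 5 were lower and Bmp7 was higher. Pax2, an early otic paired-box factor, stood at 15.5 and 8.57 against 46.3 and 64.5 (log2 difference -2.41, adjusted p = 0.00365), Lmx1a at 15.5 and 4.98 against 42.6 and 34.2 (log2 difference -2.24, adjusted p = 0.0245) and Isl1 at 134 and 116 against 226 and 310.4 (log2 difference -1.13, adjusted p = 0.00722). Krt8 stood at 97.6 and 58.3 against 337 and 372 (log2 difference -2.27, adjusted p = 0.000494). Lars2, Hist1h2ap, Pgk1, Ctgf, Hmga1, mt-Atp8 and Hist1h2ae were also among the 10 largest decreases, with log2 differences from -3.01 to -1.93. Neuron markers moved too, with 5 of 8 tested higher and 1 lower at E14.5 and sums of 775 and 474 against 322 and 369.6 CPM, or 641 and 357 against 96.3 and 59.2 without Isl1, which was the lower one. In addition, 5 of 13 mitochondrial genes were higher and 2 lower. Among dissociation-response genes Fos, Fosb, Ier3 and Socs3 were called higher at E14.5, with log2 differences of 1.69, 1.75, 1.88 and 1.83. Hsp90aa1 of the same list was called lower (-0.65). The part of these neuron, mitochondrial and dissociation-response genes in the other differences was not tested. Cells with 3 or more markers of another type were 14 of 34 and 59 of 141 at E14.5, and 563 genes were called without them, 371 of them shared.

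**Figure D5:**
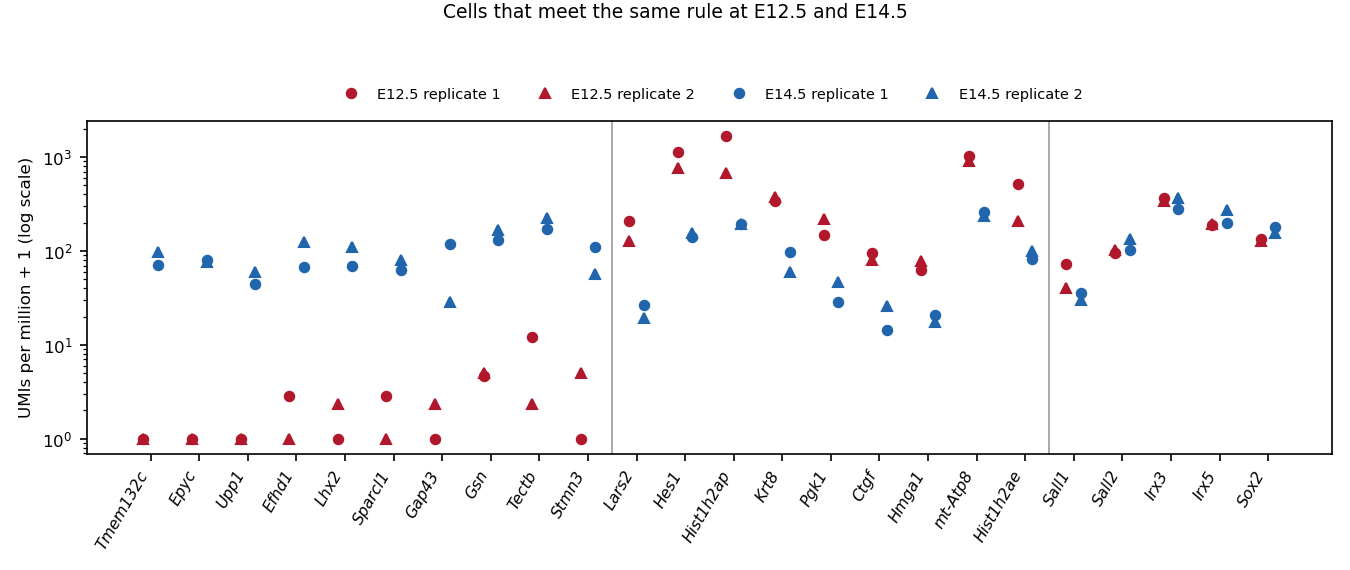
Levels at E12.5 (red) and E14.5 (blue) in cells that meet the same rule, in CPM plus 1 on a log axis, with circles for replicate 1 and triangles for replicate 2. The 3 blocks hold genes from the 10 largest increases, genes from the 10 largest decreases and, on the right, Sall1, Sall2, Irx3, Irx5 and Sox2, none of which was called.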

How the data were processed

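The authors deposited 1 matrix of raw UMI counts per library, with gene and barcode lists, made with Cell Ranger 3.0.0 on mm10 per the submitters' processing notes. The annotation is not given in the sources used here, and GENCODE vM21, used for coordinates, held 98.7% of the gene IDs (27645 of 28002). Counts were read in Python 3.11.15 with scanpy 1.11.5 and scipy 1.17.1. Cycling state came from scanpy's S and G2/M gene scores per library. Shares have exact 95% intervals that cover counting error only.

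Counts were summed per library and group and tested in R 4.3.3 with edgeR 4.0.16 (TMM, filterByExpr, quasi-likelihood test, Benjamini-Hochberg over all genes tested, threshold 0.05). Comparisons among E12.5 cells have the library as a term, because both groups come from the same library. The genes of the rule stayed out of the tests. The comparison of E12.5 Sall3-positive and other cells averages the cycling and non-cycling differences over 8 sums. On simulated counts for that comparison (9746 genes) the test recovered 66% of 2-fold and 100% of 4-fold changes and called 8 unchanged genes. For the comparison of ages (7721 genes) it recovered 15% and 98% and called 4. All simulations gave every gene the same spread, held no library effect and changed only genes above a minimum level, so the rates hold for that setting. Limits for genes at 0 rest on 3 counts over the summed cells.

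Named genes were the largest changes per direction (10 or 5) among called genes whose average log2 CPM reached 5 and whose direction was shared by both libraries (for the first comparison also in both states), leaving out numbered models, ribosomal, hemoglobin and sex-linked genes, plus the Sall and Irx families and up to 4 per gene list. Cells, lists and named markers were chosen with earlier results of these data known. Scrublet called 2, 2, 4 and 2 of 5950 cells, too few to rely on for removal, and doublets were not removed. The 5% of cells with the highest scores per library, and cells with 3 or more markers of another type, were left out as alternatives. Other alternatives were DESeq2 1.42.0, no count filter, no library term, other limits on Epcam, Sall3, Bmp4 and mitochondrial share, pooled states, thinned cells, and leaving out 1 library. Some genes that met the rule are not reported here. Figures were drawn with matplotlib 3.10.9.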

Additional observations from a re-analysis of the deposited data

Results flagged for a closer look

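For 14 genes the difference between Sall3-positive and other Epcam-positive cells changed with the cell cycle state by edgeR's quasi-likelihood test of the difference itself, in 2 libraries. Isl1 had a difference of differences (cycling minus non-cycling) of -2.40 on the log2 scale (adjusted p = 7.15e-06). Cotl1, an actin-binding protein, had -3.72 (adjusted p = 2.31e-06), at 42 and 34.8 CPM in cycling and 195 and 176 in non-cycling Sall3-positive cells. Tmsb4x, thymosin beta 4, had -2.91 (adjusted p = 0.000445), at 910.3 and 209 against 1949 and 1849.5. Nr2f2 had -3.04 (adjusted p = 0.00594). Neurod1 had -11.51 (adjusted p = 0.00383), a fitted value against a group at 0 and therefore no bound, and 18 of its 20 UMIs lay in 1 cell. Without that cell, 12 genes were called.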

How the results depend on the processing

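The alternatives for doublet scores, other cell types, Sall3 of at least 2, thinned cells and Atoh1 or Pou4f3 cells left a sum of under 10 cells, so cycle states were pooled there and the comparisons by state were not run. Within 1 library no test was made, and values were given for named genes only. The 437 calls against other Epcam-positive cells became 189 without cells with markers of other types and 819 with the rule applied after thinning. With DESeq2 the calls were 83 in cycling cells, 96 in non-cycling cells, 6 against Fgf20 cells, 129 against Bmp4 cells, 239 against Sall3-negative cells and 245 between ages. Without the count filter they were 303, 353, 102 and 545 for the first 4 of these and 1058 between ages, 64 for the change with state, and the median over all genes moved to -0.32 against other Epcam-positive cells, -0.17 in cycling cells, -0.23 in non-cycling cells and 0.18 between ages. Without cells with markers of other types they were 24 against Fgf20, 180 against Bmp4 and 148 against Sall3-negative cells. A mitochondrial limit of 5% gave 3 against Fgf20 cells and 225 between ages, Epcam of at least 2 gave 189 against Sall3-negative cells, and leaving out the Atoh1 or Pou4f3 cells gave 8 against Fgf20 cells. Leaving out 1 library gave 409 to 737 calls between ages, with an age of 1 library assumed to vary like the other. The cause was not tested.

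Pou4f3 reversed to -7.86 without the top doublet scores, -8.08 without the Atoh1 or Pou4f3 cells and -3.43 without replicate 1 (3.02 without replicate 2), Tubb3 to 0.98 without cells with other markers, Hmga2 to 0.070 without replicate 1 (-1.37 without replicate 2) and Gata3 to -0.11 without replicate 2 (1.10 without replicate 1). Of 1215 combinations of 82 genes and alternatives in that comparison, 1012 stayed the same and 112 lost the call. A further 5 became stronger, 80 moved in value and 6 reversed. Combinations with 1 library left out had no test in that comparison, so their label rests on the value alone and has no side of the threshold. Between ages, 214 of 215 stayed the same and 1 lost the call. Replicate numbers are shared between ages but no label pairs them: with the replicate block 661 genes were called in place of 572, and without the library block 462 in place of 437 against other Epcam-positive cells. The cells per library (25 and 38 cells) limit what can be detected for genes of few UMIs.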
